A study of Homo sapiens with 4 samples.

Results

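The genes described here are 10 members of AP-1, namely FOS, FOSB, FOSL1, FOSL2, JUN, JUNB, JUND, ATF3, BATF3 and JDP2, taken by name from a deposited table of 19970 human genes. Each name matched 1 row, and all 10 passed the filter on low counts. RNA was sequenced from COLO205 cells, a human colon adenocarcinoma line, in 2 NP samples and 2 control samples. NP cells received nonylphenol, an alkylphenol with estrogenic activity, at 1 µM for 24 h. Control cells received DMSO, the solvent of NP, and cells were detached with trypsin after treatment. The study's methods mention parallel experiments for each treatment, but do not say whether the 2 samples per group analysed here were separate cultures, and the p-values below therefore reflect only the spread among these 4 samples, which may be technical.

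AP-1 is a transcription factor built of pairs of proteins that hold each other through a leucine zipper and grip DNA with a neighbouring basic region. FOS proteins cannot pair with themselves and need a JUN protein as partner, whereas JUN proteins can pair with themselves, with FOS proteins or with ATF proteins. FOS, FOSB, JUN, JUNB and ATF3 are immediate-early genes, whose transcripts appear within minutes of a growth or stress signal and decay fast. FOSL1 follows more slowly and depends on sustained ERK signalling, and JUND is expressed at a steady level in most cells. In colorectal cancer cells AP-1 acts downstream of the RAS, ERK and JNK kinases.

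AP-1 genes are themselves controlled through short elements just upstream of their start sites. The sequences below are shown because FOS and JUNB were lower in NP samples, while JUN and JUND did not pass the test. Each is the 250 bases before the RefSeq start (GRCh38.p14), written 5′ to 3′ on the strand of the gene. Capitals mark TGACG, the half-site bound by CREB and ATF factors, the full site TGACGTCA that contains it, and TGACATCA, the AP-1 site of the JUN promoter, on either strand. FOS lies at chr14:75278578-75278827 on the plus strand, JUNB at chr19:12791236-12791485 on the plus strand, JUN at chr1:58784048-58784297 on the minus strand and JUND at chr19:18281623-18281872 on the minus strand.
FOS: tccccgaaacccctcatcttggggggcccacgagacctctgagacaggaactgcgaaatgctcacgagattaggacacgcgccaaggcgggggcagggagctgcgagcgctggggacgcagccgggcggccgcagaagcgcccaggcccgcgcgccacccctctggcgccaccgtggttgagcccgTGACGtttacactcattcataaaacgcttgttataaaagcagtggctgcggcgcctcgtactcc
JUNB: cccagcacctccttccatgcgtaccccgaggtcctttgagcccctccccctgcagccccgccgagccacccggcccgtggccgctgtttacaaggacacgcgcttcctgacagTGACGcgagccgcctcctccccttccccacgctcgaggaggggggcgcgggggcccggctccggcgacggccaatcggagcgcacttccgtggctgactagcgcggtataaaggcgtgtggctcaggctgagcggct
JUN: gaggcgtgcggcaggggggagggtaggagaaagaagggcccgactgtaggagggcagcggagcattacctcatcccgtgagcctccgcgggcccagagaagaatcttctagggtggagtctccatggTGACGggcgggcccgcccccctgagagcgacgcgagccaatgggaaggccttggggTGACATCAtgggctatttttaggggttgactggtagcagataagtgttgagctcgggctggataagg
JUND: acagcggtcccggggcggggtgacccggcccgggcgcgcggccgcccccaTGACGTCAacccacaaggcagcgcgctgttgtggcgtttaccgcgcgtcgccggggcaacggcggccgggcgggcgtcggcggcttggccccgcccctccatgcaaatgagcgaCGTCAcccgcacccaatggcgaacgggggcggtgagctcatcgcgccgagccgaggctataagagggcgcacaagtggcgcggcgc
RefSeq windows were matched for 8 of the 10 members (11 windows, since ATF3 and JDP2 have several starts). FOSL1 and BATF3 were not among them. At least 1 window of 7 of these 8 members held TGACG, a motif found in 21.2% of all 35116 windows of this length. That share is per window, whereas ATF3 and JDP2 could count through any of their windows. JDP2 held TGACG in only 1 of them. Counted from the start, with the base before it as -1, it stood from -64 to -60 in FOS, from -137 to -133 in JUNB and from -123 to -119 in JUN. TGACATCA was found in JUN and in 1 window of ATF3 (2.37% of all windows), and TGACGTCA in JUND (1.65%). TGACTCA (4.2%) and the CArG box bound by serum response factor (1.16%) were in none of the windows of these members. Sites further upstream than these 250 bases were not searched, so these genes may still have such sites. TGACG thus stood in windows of genes that fell and of genes that did not pass, and such matches are letters in a window, not binding measured here.

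In edgeR's quasi-likelihood test at an adjusted p under 0.05, 3 AP-1 transcripts were lower in NP samples and none was higher. These were FOS, JUNB and FOSL1, lower by 22.1%, 22.9% and 19%. If the samples of a group came from the same culture, NP and a difference between cultures cannot be told apart. DESeq2 called the same counts, 3 lower and none higher. At an unadjusted p under 0.05, 6 members were lower and none higher, where 15.1% of all genes tested passed in either direction. Across all 12616 genes tested, 1.7% were lower and 2.35% higher at an adjusted p under 0.05 (4.06% in either direction). The median log2 fold change was -0.14 over the 10 members and 0.0015 over all genes. The members were chosen with earlier results of these data known, so these counts are descriptions and no test of the family. In bulk RNA, fewer cells with a transcript and less of it per cell cannot be told apart.

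Within the FOS subfamily, FOS encodes c-Fos, the founding member and a strong activator. It had 143 and 139 CPM (read counts scaled by library size and TMM factors) in NP samples, against 182 and 179 CPM in control samples. These came from 2418 and 1859 reads in NP samples, against 2866 and 2804 reads in control samples. Both NP samples lay below both control samples, and the gap was several times the distance within a group. On the log2 scale NP minus control was -0.36 (standard error, SE, 0.041, edgeR adjusted p = 1.1e-09).
FOSL1, which encodes FRA1, a FOS protein without the strong activation domain of c-Fos and linked to invasion of carcinoma cells, had 99.7 and 101 CPM in NP samples, against 123 and 124 CPM in control samples. The log2 difference was -0.30 (SE 0.046, edgeR adjusted p = 3.1e-06), with no overlap between the groups.
FOSB, the closest relative of FOS, had 16.3 and 15.1 CPM in NP samples, against 19.0 and 18.1 CPM in control samples. The groups did not overlap, but with 202 to 298 reads per sample the log2 fold change of -0.23 (95% interval from -0.46 to -0.0092) did not pass (edgeR adjusted p = 0.30).
FOSL2, which encodes FRA2, had 365 and 369 CPM in NP samples, against 398 and 378 CPM in control samples. The control samples lay further apart from each other than the NP samples did, and the log2 fold change of -0.079 (95% interval from -0.14 to -0.014) did not pass (edgeR adjusted p = 0.19).

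**Figure D1:**
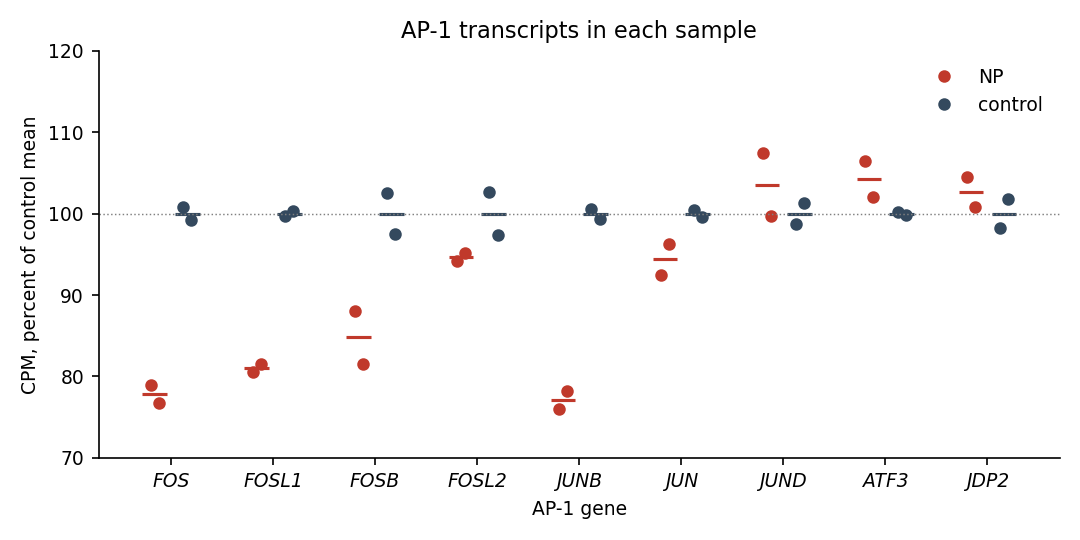
CPM of each AP-1 gene in each sample as a percent of the control mean of that gene (points are samples, short lines are group means, NP left of control, n = 2 each; the y axis starts at 70). FOS, FOSL1 and JUNB were well below control in both NP samples, and JUND and JDP2 overlapped. BATF3 is left out for its low counts.

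In the JUN subfamily, JUNB fell and the others did not pass. JUNB, which pairs with FOS proteins and is a weaker activator than c-Jun, had 99.4 and 102 CPM in NP samples, against 132 and 129.9 CPM in control samples. The log2 difference of -0.38 (SE 0.046, edgeR adjusted p = 1.1e-08) was the lowest of the 10 members. JUN, which encodes c-Jun, the main partner of FOS proteins and a target of JNK, had 349 and 363 CPM in NP samples, against 379 and 375 CPM in control samples. The groups were apart by a narrow margin, and the log2 fold change of -0.085 (95% interval from -0.15 to -0.020) did not pass (edgeR adjusted p = 0.15). JUN did pass with offsets for gene length, at -0.11 (edgeR adjusted p = 0.030). JUND, which encodes the JUN protein of resting cells, had 194 and 179.9 CPM in NP samples, against 178 and 183 CPM in control samples. The groups overlapped, with a log2 fold change of 0.053 (95% interval from -0.027 to 0.13, adjusted p = 0.597 from edgeR) that was -0.0040 without NP replicate 1.

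Outside both subfamilies no member passed. ATF3, a stress-induced repressor in many settings, had 120.3 and 115 CPM in NP samples, against 113 and 113 CPM in control samples. Both NP samples were the higher ones, but the log2 fold change of 0.062 (95% interval from -0.030 to 0.15) did not pass (edgeR adjusted p = 0.587). JDP2, a repressor that pairs with JUN proteins, had 45.4 and 43.8 CPM in NP samples, against 42.7 and 44.2 CPM in control samples. Its groups overlapped, with a log2 fold change of 0.040 (95% interval from -0.10 to 0.18, edgeR adjusted p = 0.86). BATF3, known for its role in dendritic cells, had 7 and 9 reads in NP samples, against 8 and 11 reads in control samples. The ratio of NP to control was 0.866 with an exact 95% interval from 0.417 to 1.78 (counting error only), so that a change of the size seen in FOS was not detectable at this depth. Both NP samples were below both control samples in 6 members, against 21.7% of all genes tested, and above both in 1, against 22.5%.

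**Figure D2:**
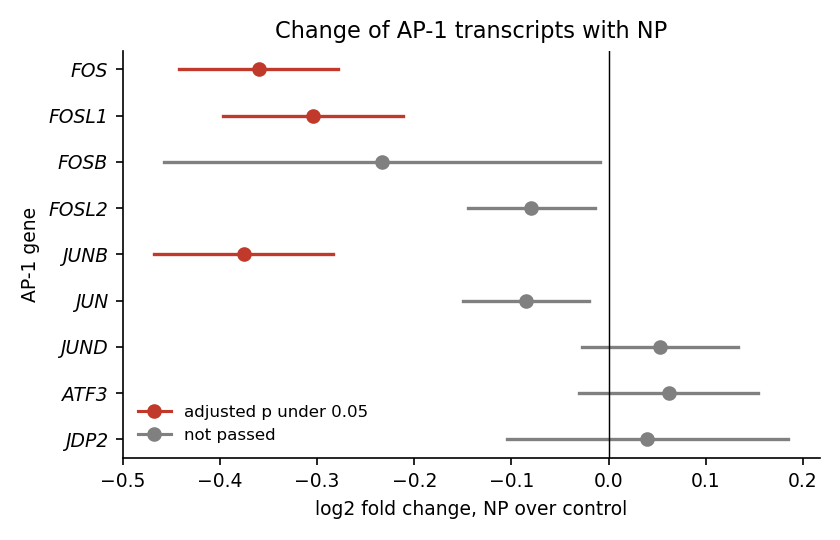
Log2 fold change (NP over control) of each AP-1 gene with its 95% interval from the edgeR fit (n = 2 each; red, adjusted p under 0.05; grey, not passed; BATF3 left out). FOS at -0.36, JUNB at -0.38 and FOSL1 at -0.30 are the genes that passed.

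FOS was compared with each of the 9 other members by the difference of their log2 fold changes, with intervals of 95% coverage over all 9 pairs. FOS had a lower log2 fold change than JUN, FOSL2, JUND, ATF3 and JDP2: the intervals of these 5 differences left out 0. The difference (FOS minus the other gene) was -0.28 from JUN (interval from -0.43 to -0.12) and -0.28 from FOSL2 (interval from -0.43 to -0.13). It was -0.41 from JUND (interval from -0.58 to -0.25), -0.42 from ATF3 (interval from -0.599 to -0.24) and -0.40 from JDP2 (interval from -0.64 to -0.16). FOS could not be told from JUNB, at a difference of 0.015 (interval from -0.16 to 0.19), or from FOSL1, at -0.056 (interval from -0.23 to 0.12). For FOSB the interval ran from -0.47 to 0.22 and for BATF3 from -1.93 to 1.59, too wide to say. All 5 differences kept leaving out 0 in each of 12 other settings, those without a sample included.

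**Figure D3:**
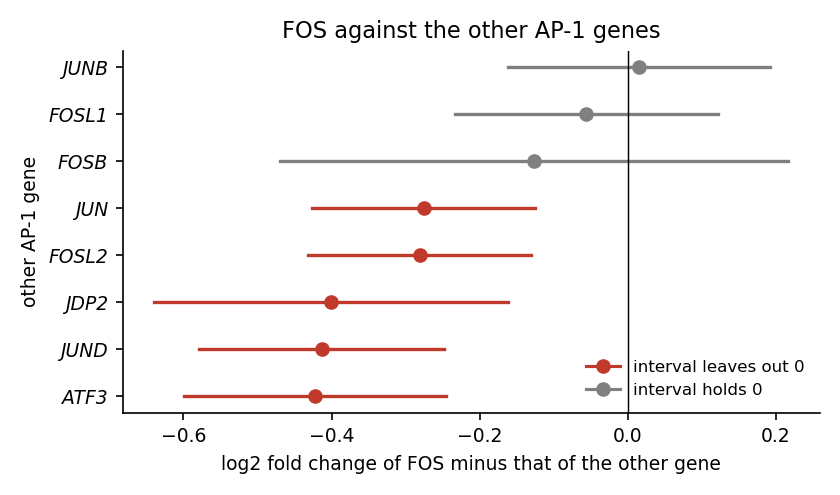
Log2 fold change of FOS minus that of each other AP-1 gene, with intervals of 95% coverage over all 9 pairs (red, the interval leaves out 0; grey, it holds 0; BATF3 left out for its width). JUNB, FOSL1 and FOSB hold 0, and the other 5 genes plotted lie between -0.28 and -0.42.

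The difference of FOS from JUN and from ATF3 was also visible within each sample as a ratio of levels per length. The ratio of FOS to JUN in FPKM was 0.419 and 0.391 in NP samples, against 0.493 and 0.489 in control samples, and that of FOS to ATF3 was 1.51 and 1.53 in NP samples, against 2.04 and 2.02 in control samples. The ratio of FOS to JUNB was 0.825 and 0.779 in NP samples, against 0.796 and 0.793 in control samples, and overlapped, as did that to BATF3. Ratios to FOSL1 (0.849 and 0.815 in NP, 0.875 and 0.856 in control samples) were lower in both NP samples too. So were those to FOSB (15.3 and 16.0 in NP, 16.8 and 17.3 in control samples). The order of samples alone thus did not set FOSL1 and FOSB apart from JUN and ATF3. With 2 samples per group an exact permutation test (two-sided) cannot go below p = 0.333, the value for JUN, ATF3, FOSL1 and FOSB.

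Per length, JUN was the most abundant of the 10 transcripts in both groups, at 109 ± 3.3 FPKM in NP and 116 ± 0.96 FPKM in control samples (FPKM, reads scaled by gene length and by depth, with SD and n = 2 each). JUND followed at 96.6 ± 4.8 FPKM in NP and 93.7 ± 1.5 FPKM in control samples. JUNB was at 55 ± 1.2 FPKM in NP and 71.6 ± 0.78 FPKM in control samples, and FOSL1 at 53 ± 0.59 FPKM in NP and 65.7 ± 0.15 FPKM in control samples. FOS and FOSL2 changed places. In NP samples FOS stood at 44.6 and 43.5 FPKM, below FOSL2 at 50.8 and 51.4 FPKM. In control samples FOS stood above FOSL2, at 57.4 and 56.4 FPKM, with FOSL2 at 55.7 and 52.7 FPKM, a gap smaller than the spread of FOSL2. ATF3 was near 29.1 FPKM in NP and 28.0 FPKM in control samples, JDP2 at 7.1 FPKM in NP and 6.95 FPKM in control samples, FOSB at 2.82 FPKM in NP and 3.34 FPKM in control samples, and BATF3 below 0.3 FPKM in every sample. In NP samples JUNB and FOSL1, and FOSL1 and FOSL2, were narrowly apart: the lower JUNB sample was at 54.1 and the higher FOSL1 sample at 53.4 FPKM, and the lower FOSL1 sample at 52.6 and the higher FOSL2 sample at 51.4 FPKM.

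**Figure D4:**
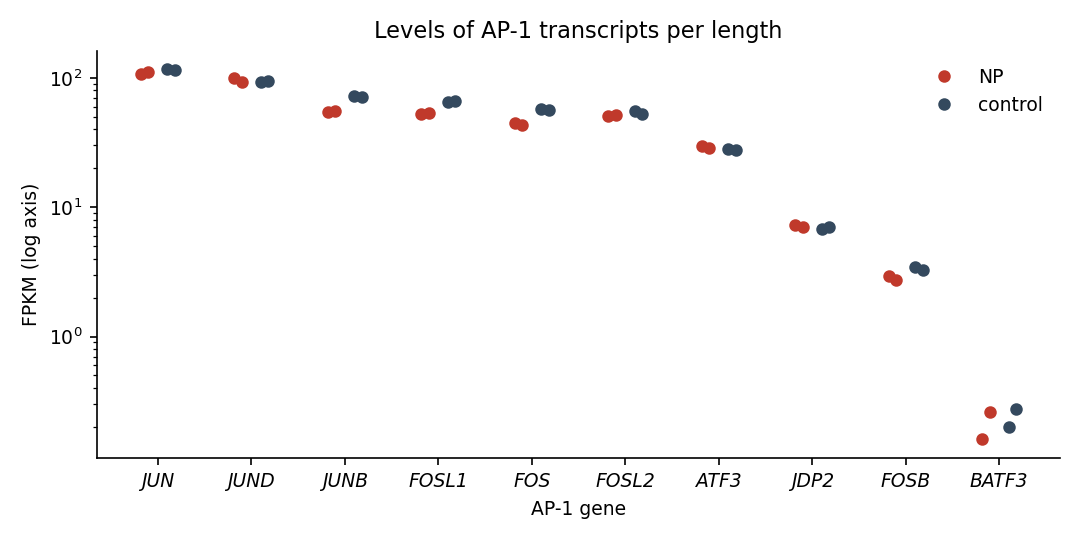
FPKM of the 10 AP-1 genes in each sample on a log axis, ordered by the control mean (points are samples, NP left of control, n = 2 each). JUN and JUND lead in both groups, FOS lies below FOSL2 in NP samples, and BATF3 is below 0.3 FPKM.

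Summed over the 10 members, AP-1 transcripts reached 449 and 447 FPKM in NP samples, against 499 and 494 FPKM in control samples. The sum was lower in both NP samples. FOS made up 9.95% and 9.74% of the sum in NP samples, against 11.5% and 11.4% in control samples, and JUNB 12.1% and 12.5% in NP samples, against 14.5% and 14.4% in control samples. JUND made up 22.3% and 20.8% in NP samples, against 18.6% and 19.2% in control samples, so that its share was higher in both NP samples, although its own level did not pass the test. The ratio of the summed FOS subfamily to the summed JUN subfamily was 0.579 and 0.581 in NP samples, against 0.648 and 0.634 in control samples (exact two-sided permutation p = 0.333, the smallest this design allows).

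FOS lies on chromosome 14 from 75278826 to 75282230, FOSL1 on chromosome 11 from 65892049 to 65900573 and JUNB on chromosome 19 from 12791486 to 12793315 (GRCh38, deposited table). The gene lengths in the table were 3186 bases for FOS, 1887 for FOSL1 and 1830 for JUNB, against 3257 for JUN and 1929 for JUND. JUNB and JUND have almost the same length and are on the same chromosome. Offsets for gene length left FOS at -0.38, FOSL1 at -0.36 and JUNB at -0.43, and offsets for GC content left them at -0.36, -0.28 and -0.35, all past the adjusted p in edgeR. JUNB overlaps HOOK2 on the opposite strand and shares 259 of its 1820 annotated exon bases with it. The strand setting of the counting is not known here, so reads in those bases cannot be told apart. HOOK2 itself had a log2 fold change of -0.028 (edgeR adjusted p = 0.85). FOSB overlaps ERCC1 but shares no exon base with it.

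Lists of genes around AP-1 were read from the same fit. They were chosen with earlier results of these data known, so their counts beside the shares of all genes are descriptions and no tests. Of 18 tested bZIP factors that can pair with or relate to AP-1 proteins, none passed in edgeR or in DESeq2, and 1, DDIT3, was higher at an unadjusted p under 0.05 (15.1% of all genes in either direction). DDIT3, the stress factor CHOP, was at 178 ± 7.5 CPM in NP and 163 ± 17 CPM in control samples, with overlapping groups. ATF4, ATF5 and NFE2L2, next by p, had log2 fold changes of 0.052, 0.18 and -0.069 (lowest adjusted p = 0.35 from edgeR). Of 23 tested kinases and factors upstream of FOS and JUN, none passed in edgeR or in DESeq2, with 1 lower and 2 higher at an unadjusted p under 0.05 (15.1% of all genes). They were the SRF coactivator MRTFB at -0.17, the p38 activator MAP2K6 at 0.11 and the ternary complex factor ELK3 at 0.34 (adjusted p = 0.072, 0.17 and 0.25 from edgeR). MRTFB passed with offsets for GC content, at -0.19 (edgeR adjusted p = 0.042), and MAP2K6 with offsets for gene length, at 0.15 (edgeR adjusted p = 0.026). MAP2K1, which encodes MEK1, was at 0.095 (adjusted p = 0.45). Phosphorylation of these kinases was not measured by this sequencing. The study reports separately, with western blots of lentivirus-infected COLO205 cells, that NP activated ERK. Whether that relates to the transcripts here was not tested.
Of 13 tested genes for the turnover of AP-1 protein and mRNA, 2 fell, none rose and 11 did not pass. Of all genes, 1.7% fell and 2.35% rose at this adjusted p. DESeq2 called 2 lower and none higher. At an unadjusted p under 0.05, edgeR had 3 lower and 1 higher, against 15.1% of all genes in either direction. The 2 genes that fell encode proteins that bind AU-rich elements and speed the decay of mRNAs such as that of FOS. ZFP36 was at 169 ± 5.0 CPM in NP and 197 ± 0.94 CPM in control samples (log2 difference -0.22, SE 0.039, edgeR adjusted p = 9.8e-05). ZFP36L1 was at 358 ± 4.7 CPM in NP and 401 ± 5.4 CPM in control samples (log2 difference -0.16, SE 0.032, edgeR adjusted p = 0.00040). ZFP36 is also an immediate-early gene. Other genes of mRNA turnover on this list did not pass: ZFP36L2 was at 0.0018, KHSRP at -0.029 and HNRNPD at 0.049. Their adjusted p from edgeR was 0.99, 0.80 and 0.53. COPS5, a JUN-binding subunit of the COP9 signalosome, was at 0.18 and the RNA-binding protein gene ELAVL1 at -0.12 (adjusted p = 0.19 and 0.32 from edgeR).
Of 20 tested genes known for AP-1 sites in their promoters or enhancers, 2 fell, none rose and 18 did not pass. Of all genes, 1.7% fell and 2.35% rose at this adjusted p. DESeq2 called 1 lower and none higher, and gave no adjusted p for CXCL8 and CLU. At an unadjusted p under 0.05, edgeR had 5 lower and 2 higher, against 15.1% of all genes in either direction. HBEGF, a ligand of the EGF receptor, was at 243 ± 6.1 CPM in NP and 284 ± 0.31 CPM in control samples (log2 difference -0.22, SE 0.035, edgeR adjusted p = 8.3e-06). CXCL8, the chemokine interleukin-8, was at 16 ± 1.3 CPM in NP and 20.9 ± 0.71 CPM in control samples (log2 difference -0.39, edgeR adjusted p = 0.025). CXCL8 did not pass without NP replicate 1, control replicate 1 or control replicate 2 (log2 fold changes of -0.30, -0.43 and -0.36). AREG, another EGF receptor ligand, was at -0.085 (adjusted p = 0.054). It passed in 6 of 12 other settings, among them offsets for gene length at -0.14 (edgeR adjusted p = 1e-05). The secreted chaperone gene CLU was at 0.34 (adjusted p = 0.16). The matrix metalloproteinase genes MMP1 and MMP3, textbook AP-1 targets, had 0 to 3 reads per sample and were not tested. The median log2 fold change of this list was 0.012, against 0.0015 over all genes.

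**Figure D5:**
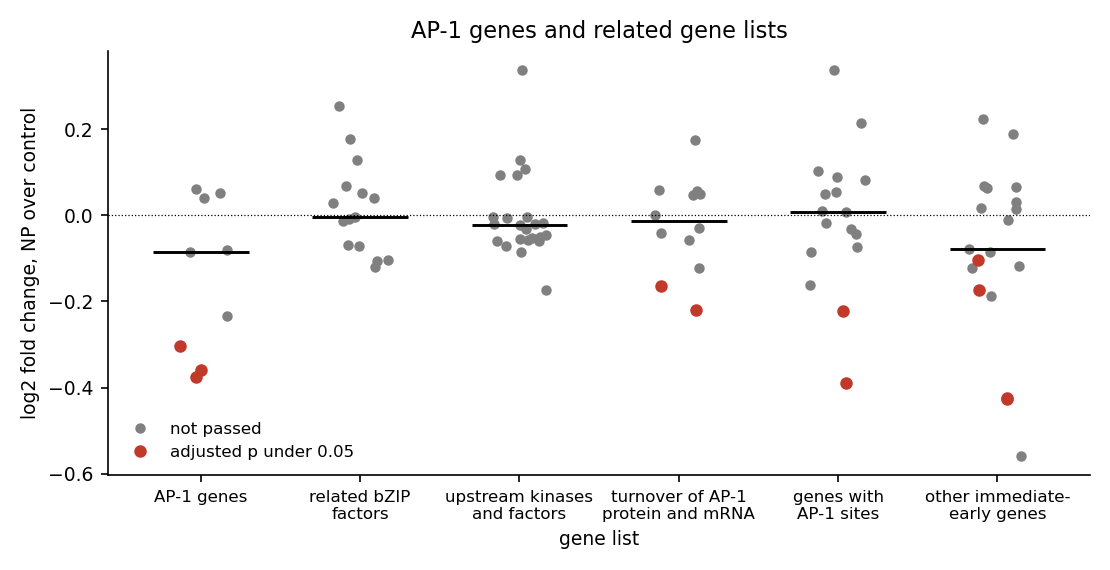
Log2 fold change (NP over control) of the genes of each list with a mean of 5 CPM or more (points are genes, red where the adjusted p of edgeR was under 0.05, black lines are medians). The AP-1 genes reach from -0.38 to 0.062, and none of the bZIP or upstream genes is red.

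Among 24 other immediate-early genes tested, 4 fell, none rose and 20 did not pass. This list was chosen with earlier results of these data known, so its counts are a description and no test. Of all genes, 1.7% fell and 2.35% rose at this adjusted p. DESeq2 called 2 lower and none higher. At an unadjusted p under 0.05, edgeR had 7 lower and 1 higher, against 15.1% of all genes in either direction. EGR1, a zinc finger factor, and IER3, an early response gene, both stood at -0.43, with FOS at -0.36 and JUNB at -0.38. TRIB1, which encodes a pseudokinase, was at -0.17 and MCL1, which encodes a survival protein of the BCL2 family, at -0.10 (adjusted p = 0.015 and 0.049 from edgeR). Neither TRIB1 nor MCL1 passed in DESeq2, without control replicate 1 or without NP replicate 1, and TRIB1 also did not without control replicate 2. MCL1 also did not without NP replicate 2 or with no filter on low counts. In DESeq2 TRIB1 was at -0.17 and MCL1 at -0.11. MCL1 was at -0.13 without NP replicate 2, at -0.10 with no filter, at -0.080 without NP replicate 1 and at -0.081 without control replicate 1. Without control replicate 1, NP replicate 1 and control replicate 2, TRIB1 was at -0.16, -0.10 and -0.19 on the log2 scale. The 20 genes that did not pass reached from -0.73 in EGR4 (19 to 39 reads per sample, edgeR adjusted p = 0.29) to 0.37 in CCN2 (36 to 57 reads per sample, edgeR adjusted p = 0.57). EGR2 was at -0.56 (61 to 132 reads per sample, edgeR adjusted p = 0.065), with both NP samples below both control samples. EGR2, EGR4 and CCN2 were named after their values were seen.
Of 4528 genes at 50 CPM or more in control samples, only 7 (0.155%) had a log2 fold change as low as that of FOS. Besides FOS and JUNB these were EGR1, IER3, the ERK feedback inhibitor gene SPRY4, the thioredoxin inhibitor gene TXNIP and TNS4, an adaptor of focal adhesions, a gene picked here only because of this value. Profiles over the 4 samples were compared by Euclidean distance of centred log2 CPM among 9317 genes at 10 CPM or more. The AP-1 members were left out of these 9317 genes, so likeness between members was not ranked. Among them the profile most like that of FOS was that of TXNIP (distance 0.015, log2 fold change -0.37). RUBCN (0.051), the cytokine gene LIF (0.061), SPRY4 (0.065) and TMEM209 (0.072) came next. For JUN the nearest genes were HTT (0.0027), PSD3 (0.0074) and MAF1 (0.0089), and for ATF3 they were MRPL45 (0.0062), PPARA (0.0089) and SELENBP1 (0.011), all with log2 fold changes within 0.1 of 0. These are likenesses over 4 samples and say nothing of shared control.

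Counts per sample summed to 13401691 to 16998129. Chi-square per gene was 1.88 between NP samples and 1.94 between control samples, where sampling of reads alone gives 1. All 10 markers of colon epithelium had reads in every sample, with a summed level of 1387 to 1396 FPKM in NP and 1391 to 1393 FPKM in control samples. None passed in edgeR (none at an unadjusted p under 0.05, and none in DESeq2). Their levels differed widely, from 42705 to 54023 reads per sample in KRT8 down to 23 to 29 in KRT20. CDX1 had 38 to 53 reads per sample and CDX2 55 to 70. The 8 markers of leukocytes, endothelium and fibroblasts summed to 0.351 to 0.417 FPKM in NP and 0.319 to 0.427 FPKM in control samples. PTPRC, CD3E and COL1A2 were at 0 in every sample. COL1A1 had 41 to 56 reads per sample, about as many as the epithelial marker CDX1.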

How the data were processed

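RNA of 2 NP and 2 control samples was measured in 1 deposited table. The raw counts deposited by the authors are whole reads per gene. HISAT2, HTSeq and GRCh38 come from the submitters' processing notes. Their versions, the annotation release and the strand setting are not given in the sources. The FPKM values deposited by the authors equal counts divided by gene length and summed counts, within 6.3e-12%.

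Counts were filtered with filterByExpr (minimum count 10), scaled with TMM (factors from 0.9963 to 1.0037) and tested with edgeR 4.0.16 (R 4.3.3) by the quasi-likelihood test, with Benjamini-Hochberg adjustment over 12616 genes and a threshold of 0.05. Standard errors were taken as |log2 fold change| over the root of F. Differences between FOS and other members treat estimates as independent and use Bonferroni-widened t intervals. The test was checked on simulated counts.

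Named genes were the members, up to 4 genes per list by smallest p, and the genes outside the members nearest to FOS (5), JUN (3) and ATF3 (3). The members and lists were chosen with earlier results of these data known. Alternatives were DESeq2 1.42.0, RLE factors, library size only, other filters, each sample left out, the replicate block, and offsets for gene length and GC content (GENCODE 29). 1 gene of the list of upstream kinases and factors is counted but not reported by name.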

Additional observations from a re-analysis of the deposited data

How the results depend on the processing

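FOS, FOSL1 and JUNB passed the adjusted p in all 12 other settings. Across them the log2 fold change of FOS ranged from -0.384 to -0.341, that of FOSL1 from -0.357 to -0.278 and that of JUNB from -0.43 to -0.352. No other member passed in any setting except JUN with offsets for gene length. DESeq2 gave no adjusted p for FOSB, JDP2 and BATF3, and BATF3 was not tested with at least 10 counts in every sample. Outside the members, CXCL8, CLU, ATF5, ELK3 and COPS5 also had no adjusted p in DESeq2. Over all genes, DESeq2 called 109 higher and 72 lower, against 297 and 215 in the fit of the report. Leaving out 1 sample gave 104 to 237 higher and 67 to 150 lower, with the lowest counts without control replicate 1. The cause was not tested. With the replicate block 372 were higher and 280 lower, and 3 AP-1 members were lower. Same-numbered samples did not deviate together (correlation -0.0165 across 10385 genes). With only 2 pairs this cannot show whether they shared a culture or batch. The block changed no call among the members. Outside the members, DDIT3 (0.135), MRTFB (-0.176) and AREG (-0.0846) passed with the block and not in the report's fit, and DDIT3 (0.239) also without control replicate 2. Depth limits BATF3, with 7 to 11 reads per sample, and FOSB, with 202 to 298. Counting intervals cover counting error only.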
